A study of Mus musculus with 18 samples.

Results

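Knockdown of SSBP1 in unstressed cells was read from 6 of the 18 arrays of the series: 3 arrays of SSBP1-KD cells and 3 of SCR cells, all kept at 37 °C (Cont). The arrays were chosen by their labels alone and every gene symbol with a probe set of its own was followed, 19938 in all. The cells were immortalized mouse embryonic fibroblasts (MEF) of ICR background. Both groups were infected for 2 h with an adenovirus, which carried a scrambled RNA in SCR and a short hairpin RNA against SSBP1 in SSBP1-KD, and RNA was taken after 70 h in normal medium, so that contact with virus was common to both. SCR and SSBP1-KD cells given a heat shock of 1 h at 42 °C (HS, 3 arrays each) and unstressed cells with a hairpin against HSF1 (HSF1-KD Cont, 3 arrays) were used beside them. From each sample 200 ng of total RNA went onto an Affymetrix Mouse Gene 1.0 ST array, and all values below are log2 signals, on which a difference of 1 is a 2-fold change; rises and falls are given on this scale unless a fold is named. The labels name 1 fibroblast line and 1 hairpin target per virus, and whether the replicates were grown apart is not given. The p-values therefore cover the scatter among these samples only, and that scatter may be technical.

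SSBP1, also called mitochondrial single-stranded DNA-binding protein, coats the single strand that opens at the replication fork of mitochondrial DNA, where it works with the helicase Twinkle and the polymerase POLG. Mitochondrial DNA encodes a small set of respiratory chain subunits, and the remaining mitochondrial proteins come from nuclear genes. In heat-shocked cells SSBP1 has also been studied as a nuclear partner of the heat shock factor HSF1. The comparison here asks which transcripts differ between cells with the SSBP1 hairpin and cells with scrambled RNA when no heat is applied. Effects of less SSBP1 and other effects of that hairpin or its virus cannot be told apart here.

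The 18 arrays had medians from 7.88 to 7.94. SSBP1-KD Cont replicate 1 stood apart, with a mean absolute distance from its group mean of 0.152 against 0.0918 and 0.110 for the other SSBP1-KD Cont arrays and 0.0711 to 0.0788 for SCR Cont, and the counts of the lists are also shown without it. Fibroblast markers were bright in SCR Cont, with means from 9.47 for Pdgfra to 14.08 for Fn1 in 8 of 10 markers, against an array median under 8. Vim, the intermediate filament gene of mesenchymal cells, read 13.86, 13.83 and 13.79 in SCR Cont and 13.94, 13.91 and 13.90 in SSBP1-KD Cont, whereas Lum was near the floor of the array in both, at 5.38, 5.17 and 5.23 and 5.43, 5.35 and 5.08. Of the fibroblast markers 7 of 10 were lower and 1 was higher in SSBP1-KD; Pdgfrb differed by -0.98 (standard error 0.06, adjusted p = 1.03e-07) and Pdgfra by -0.72. The defining markers of macrophages (Ptprc and Adgre1) and adipocytes (Adipoq) had SCR Cont means of 5.80 to 6.31, at the dim end of the array. Others of the same lists were brighter, with SCR Cont means of 9.35 for Cd68 (macrophages) and 10.23 for Lpl (adipocytes). Among the 26 markers of other cell types 6 were higher and 2 were lower in SSBP1-KD, Cd68 by 0.43 and Pecam1 by 0.42, while Lpl differed by -0.68 and Cdh1 by -0.37. The mean log2 level of the 6 macrophage markers ran from 7.06 to 7.11 in SCR Cont and from 7.15 to 7.33 in SSBP1-KD Cont, with 2 of 6 called higher, and that of the 10 fibroblast markers from 10.91 to 10.995 and from 10.43 to 10.59; the part of such shifts in the results below was not tested. In such a bulk measurement fewer cells of a kind and less RNA per cell cannot be told apart.

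Ssbp1 itself was lower in SSBP1-KD Cont in all 3 arrays, by a margin that did not pass the test over all probe sets. Its log2 signals were 9.54, 9.36 and 9.36 in SCR Cont and 9.02, 9.25 and 9.32 in SSBP1-KD Cont. The groups did not overlap, but the gap between them was only 0.04, and the largest drop was that of replicate 1, the array that stood apart. The log2 difference was -0.22 (standard error 0.08, adjusted p = 0.0555), it was -0.14 without replicate 1 (adjusted p = 0.239), and without replicate 3 it passed (adjusted p = 0.0256). HSF1-KD Cont read 9.62, 9.55 and 9.49, above every SSBP1-KD Cont array, and SSBP1-KD against HSF1-KD gave -0.35 (adjusted p = 0.00437). Heat-shocked arrays, which share no sample with the Cont arrays, read 9.07, 9.09 and 9.03 in SCR and 8.71, 8.57 and 8.67 in SSBP1-KD, again without overlap.

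Between SSBP1-KD and SCR in Cont, 2920 of the 19938 symbols were higher (14.6%) and 3287 lower (16.5%) at an adjusted p under 0.05, the threshold used for every call below. Most of these differences were small, with a median size of 0.29 on the log2 scale among the called symbols. Past 1.5-fold there were 159 higher and 463 lower symbols, and past 2-fold 23 higher and 87 lower ones. The 3 and 3 arrays did not overlap for 4568 symbols with a higher mean in SSBP1-KD (22.9%) and 4239 with a lower one (21.3%). Without SSBP1-KD Cont replicate 1, 2705 were higher (13.6%) and 2994 lower (15.0%), and 5186 symbols were called the same way in both fits. The gene groups below are lists drawn up for this report, read as counts of called members beside these shares, with no test of a list as a whole; the median log2 difference of all symbols was 0.05.

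The largest falls reached 6.76-fold, and several were of genes for membrane or secreted proteins. Gpm6a, a neuronal membrane glycoprotein gene, read 10.62, 10.63 and 10.90 in SCR Cont and 8.17, 7.91 and 7.81 in SSBP1-KD Cont, the largest fall of all symbols at 6.76-fold (log2 difference -2.76, standard error 0.13, adjusted p = 2.3e-08). Plxna4, a semaphorin receptor gene, went from 10.02, 10.07 and 10.49 to 8.14, 8.06 and 8.04. The gap between the groups was 2.46 for Gpm6a and 1.88 for Plxna4. Adcyap1r1, the receptor gene of the neuropeptide PACAP, fell by 4.35-fold, the kinase gene Stk26 by 4.17-fold, and Fmod, for the collagen-binding proteoglycan fibromodulin, by 3.94-fold. Among the 25 largest falls were also Cd200, a surface ligand that restrains myeloid cells (log2 -1.83), the heparin-binding growth factor gene Ptn (-1.61) and Ptprz1, for a phosphatase that serves as its receptor (-1.60), and Gas1, a growth arrest gene (-1.51). In many of these genes SCR Cont replicate 3 was higher than replicates 1 and 2, as with Fmod at 9.84, 9.95 and 10.50 in SCR against 8.25, 8.21 and 7.90 in SSBP1-KD, but the lowest SCR array remained above the highest knockdown array. All 25 were also called lower in SSBP1-KD after heat shock and without SSBP1-KD Cont replicate 1. They were chosen with no overlap of the Cont arrays, so their sign without replicate 1 was fixed by that choice. Of the 25, 21 differed between SSBP1-KD and HSF1-KD. Most of these differed in size and not in direction. Against the same SCR arrays all but Saa3 (0.14) had a negative difference in HSF1-KD as well, such as -1.54 for Plxna4 and -0.60 for Gpm6a. The genes were picked by their distance from these SCR arrays. Part of the shared sign may come from that choice, which was not tested.

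The largest rises were smaller, up to 4.35-fold for Lce1g. Lce1h, of the late cornified envelope family, read 8.68, 8.77 and 8.69 in SCR Cont and 10.17, 10.60 and 10.45 in SSBP1-KD Cont (log2 difference 1.69, standard error 0.10, adjusted p = 8.75e-08). Lce1g gave 2.12 from dim signals of 6.14, 6.10 and 5.44 in SCR, and Lce1i 1.26. The 3 genes are near copies and neighbours in 1 family, so their probe sets may share signal and they are not 3 separate observations. Ptgs2, which encodes the inducible cyclooxygenase, read 10.27, 10.31 and 10.02 in SCR Cont and 11.59, 11.64 and 11.56 in SSBP1-KD Cont, a 2.63-fold rise (adjusted p = 2.3e-08). Its knockdown arrays spanned 0.09 and lay above all SCR arrays. Gpnmb, a lysosome-associated glycoprotein gene, rose by 2.75-fold, Serpinb2, an inhibitor of plasminogen activators, by 2.71-fold, and Tnfsf18, the ligand of the receptor GITR, by 2.56-fold. Sgms2, for a sphingomyelin synthase, gave 1.07, the EGF-receptor ligand Ereg 1.04, and the checkpoint receptors Tigit and Havcr2, which are best known from lymphocytes, 1.13 and 0.95. All 25 largest rises were also called higher after heat shock and without SSBP1-KD Cont replicate 1, where the choice of genes without overlap had fixed the sign. Of the 25, 22 differed between SSBP1-KD and HSF1-KD. Here too the direction was mostly shared. Against the same SCR arrays all but Serpinb9b (-0.76) had a positive difference in HSF1-KD, such as 1.01 for Ptgs2 and 0.05 for Mmp13. These genes too were picked by their distance from the SCR arrays, which may account for part of the shared sign and was not tested.

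**Figure D1:**
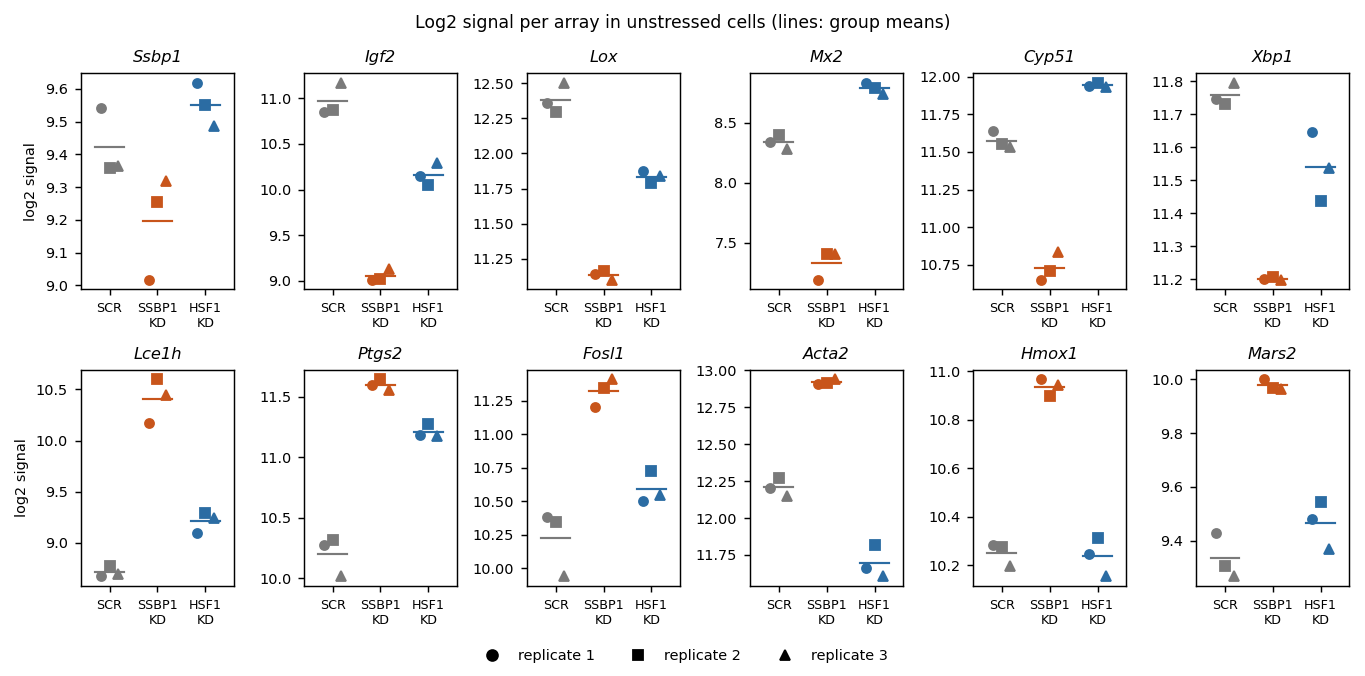
Log2 signal (vertical axes, each with its own range) of 12 genes in the 3 arrays each of SCR, SSBP1-KD and HSF1-KD in Cont; symbols mark the replicate number and lines the group means. For Igf2, Lox, Mx2, Cyp51 and Xbp1 the SSBP1-KD arrays lie below every SCR array, for Lce1h, Ptgs2, Fosl1, Acta2, Hmox1 and Mars2 above them, and Ssbp1 differs by -0.22.

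Among extracellular matrix genes, falls were most frequent in the enzymes and scaffold proteins that assemble collagen and elastic fibres. Of 33 measured genes of collagen processing, lysyl oxidases and elastic fibres 26 fell and 3 rose (median -0.36; 25 and 2 without SSBP1-KD Cont replicate 1). Lox, the lysyl oxidase that crosslinks collagen and elastin, read 12.36, 12.29 and 12.50 in SCR Cont and 11.14, 11.16 and 11.10 in SSBP1-KD Cont. The knockdown arrays spanned 0.06 and the gap to the SCR arrays was 1.13 (log2 difference -1.25, standard error 0.06, adjusted p = 2.3e-08). Efemp1, for the fibulin of elastic tissue, fell by 2.08-fold, Ltbp4, which tethers latent TGF-beta to microfibrils, by 1.75-fold, and the microfibril gene Mfap2 by 1.69-fold. Pcolce2, an enhancer of procollagen cleavage, went the other way, from 10.17, 10.08 and 9.93 to 10.82, 10.79 and 10.82 (log2 0.75).

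Collagen genes themselves changed less uniformly. Of 44 measured collagen genes 13 fell, 3 rose and the others did not pass (median 0.05). Col6a2, a chain of the beaded-filament collagen VI, read 10.80, 10.79 and 10.98 in SCR and 9.78, 9.63 and 9.67 in SSBP1-KD (log2 difference -1.17, standard error 0.08, adjusted p = 2.29e-07), and its partner chain Col6a1 fell by 1.79-fold. Col1a2, a chain of fibrillar collagen I, went from 12.26, 12.26 and 12.38 to 11.29, 11.22 and 11.14. The other chain gene, Col1a1, fell as well but by less, 1.38-fold against 2.12-fold, and both had groups that did not overlap. Col4a6, of basement membranes, and Col12a1, which decorates fibrils, differed by -0.99 and -0.80. Of 38 proteoglycans and matrix glycoproteins 18 fell and 6 rose (2 rose without SSBP1-KD Cont replicate 2 and 3 without SCR Cont replicate 2). Ogn, for osteoglycin, read 8.93, 8.79 and 8.94 in SCR and 6.73, 7.19 and 7.11 in SSBP1-KD, and decorin (Dcn) 12.92, 12.87 and 13.05 and 12.02, 12.08 and 11.89. Of 27 matrix proteases and their inhibitors 13 were lower (48.1%) and 4 higher (14.8%), beside 16.5% and 14.6% over all symbols. The gelatinase gene Mmp2 fell by 1.94-fold and the aggrecanase gene Adamts5 by 1.98-fold. The collagenase gene Mmp13, however, rose from 9.14, 9.24 and 8.75 in SCR to 10.22, 10.32 and 10.20 in SSBP1-KD (log2 difference 1.21, standard error 0.10, adjusted p = 7.88e-07), and Plaur, the urokinase receptor gene, by 0.74.

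Genes of secreted Wnt antagonists, the insulin-like growth factor system and axon guidance fell in the same cells. Of 29 Wnt and IGF signalling genes 15 fell and 1 rose (median -0.31). Igf2, a growth factor of fetal tissue, read 10.85, 10.88 and 11.17 in SCR Cont and 9.01, 9.02 and 9.13 in SSBP1-KD Cont, a fall of 3.77-fold (adjusted p = 1.03e-07). The IGF-binding protein genes Igfbp2 and Igfbp4 fell by 3.58-fold and 2.19-fold. Sfrp1, a secreted frizzled-related protein that sequesters Wnt ligands, went from 11.92, 12.01 and 12.27 to 10.08, 10.27 and 10.13, and Sfrp2 and Sfrp4 differed by -1.72 and -1.04. Of 64 axon guidance ligands and receptors 32 fell and 8 rose, with Slit3 at -1.50 (standard error 0.10, adjusted p = 1.59e-07), the semaphorin genes Sema3d, Sema3c and Sema3a at -1.26, -0.97 and -0.94, and the ephrin Efnb1 at -0.90. The TGF-beta, BMP and YAP targets were mixed, with 13 of 30 lower, among them the ligand genes Tgfb3 (-1.09) and Bmp4 (-0.79), and 6 higher, among them Grem1 (0.66), for a secreted antagonist of BMPs.

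Most interferon-stimulated genes were lower in SSBP1-KD. These genes are switched on when type I interferon activates the factor ISGF3, which binds the interferon-stimulated response element in their promoters, and they include antiviral effectors and antigen-presentation genes. For 5 members whose promoters hold the letters of that element, the stretch around 1 match is given as an example. It was read from the RefSeq promoter table (assembly GRCm38.p6, 250 bases before to 50 after each start) on the strand of the gene. The matching letters are in capitals. The motif searched was GAAANNGAA or its reverse complement TTCNNTTTC, on both strands, so the likeness of the matches is set by the search. Overlapping matches were counted once per gene. Ifit1, Ifit3 and Irgm1 held more than 1 match, of which 1 was picked.
Ifit1: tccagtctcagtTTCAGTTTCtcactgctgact
Ifit3: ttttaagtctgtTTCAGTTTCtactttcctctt
Gbp7: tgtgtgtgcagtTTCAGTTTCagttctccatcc
Rsad2: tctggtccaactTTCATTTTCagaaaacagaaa
Irgm1: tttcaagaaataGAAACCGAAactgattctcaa

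These stretches lie at chr19:34640793-34640825 (+ strand), chr19:34583396-34583428 (+ strand), chr3:142530272-142530304 (+ strand), chr12:26456551-26456583 (- strand) and chr11:48871424-48871456 (- strand), with the match starting 84, 121, 52, 119 and 24 bases before the start. A match was found for 17 of the 34 interferon-stimulated genes with a promoter in the table (50.0%), for 12 of the 24 of them that fell (50.0%) and for 9.76% of all 27025 genes there. The match describes letters in the window and is not evidence of binding. The 5 genes shown were picked among those that fell. Ifit1, whose product binds viral RNA, read 10.16, 10.17 and 10.16 in SCR Cont and 9.74, 9.85 and 9.64 in SSBP1-KD Cont, and Ifit3 of the same family 9.20, 9.12 and 9.37 and 8.30, 8.66 and 8.33. The log2 differences were -0.42 for Ifit1, -0.80 for Ifit3, -0.49 for the guanylate-binding protein gene Gbp7, -0.35 for Rsad2 (viperin) and -0.32 for the immunity-related GTPase gene Irgm1. After heat shock Ifit3, Gbp7 and Rsad2 were again called lower. Ifit1 (-0.07, adjusted p = 0.615) and Irgm1 (0.01, adjusted p = 0.946) were not. Rsad2 and Irgm1 also lost the call in Cont when the 6 compared arrays were fitted alone.

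Over the whole list 33 of 44 measured interferon-stimulated genes fell and 1 rose, with a median of -0.35. Without SSBP1-KD Cont replicate 1 the counts were 32 and 1, and in heat-shocked cells 26 and 2. Mx2, a GTPase of the antiviral Mx family, read 8.34, 8.40 and 8.28 in SCR Cont and 7.19, 7.40 and 7.41 in SSBP1-KD Cont (log2 difference -1.0, standard error 0.08, adjusted p = 8.19e-07), with a gap of 0.88 between the groups. Oas1b, of the RNA-sensing oligoadenylate synthetases, fell by 1.78-fold, the membrane restriction factor gene Ifitm3 by 1.72-fold, and Lgals3bp, for a secreted lectin-binding protein, by 1.67-fold. Tap1, the peptide transporter of antigen presentation, went from 9.41, 9.52 and 9.45 to 8.76, 8.88 and 8.63. The exception was Oasl1, which rose from 8.66, 8.61 and 8.38 to 8.96, 8.95 and 8.92 (log2 difference 0.40, adjusted p = 0.00127).

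Upstream of these genes, the receptor and the inducible factor of the pathway were lower too. Of 25 genes for nucleic acid sensors and interferon induction 13 fell and 2 rose. Irf7, the interferon-inducible regulator of type I interferon genes, read 9.56, 9.59 and 9.53 in SCR Cont and 8.65, 8.84 and 8.50 in SSBP1-KD Cont (log2 difference -0.89, standard error 0.07, adjusted p = 1.16e-06). Both chains of the type I interferon receptor fell without overlap of the groups, Ifnar1 by 1.54-fold and Ifnar2 by 1.44-fold, and so did the sensors of double-stranded RNA Tlr3 (-0.43) and Ifih1 (-0.34), and the adaptor gene Sting1 (-0.23). Ifnb1, the gene of interferon beta, was dim in every array, at 6.10, 6.32 and 6.37 in SCR and 6.57, 6.43 and 6.51 in SSBP1-KD, and its difference of 0.24 did not pass (adjusted p = 0.147). Cgas, the cytosolic DNA sensor gene, had 7.90, 7.86 and 7.71 and 7.81, 8.19 and 8.14, with overlapping groups (adjusted p = 0.0863), and it was higher by 0.34 without SSBP1-KD Cont replicate 1 (adjusted p = 0.00335). The kinase gene Tbk1, which acts below the sensors, rose by 0.26 (adjusted p = 0.00302).

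**Figure D2:**
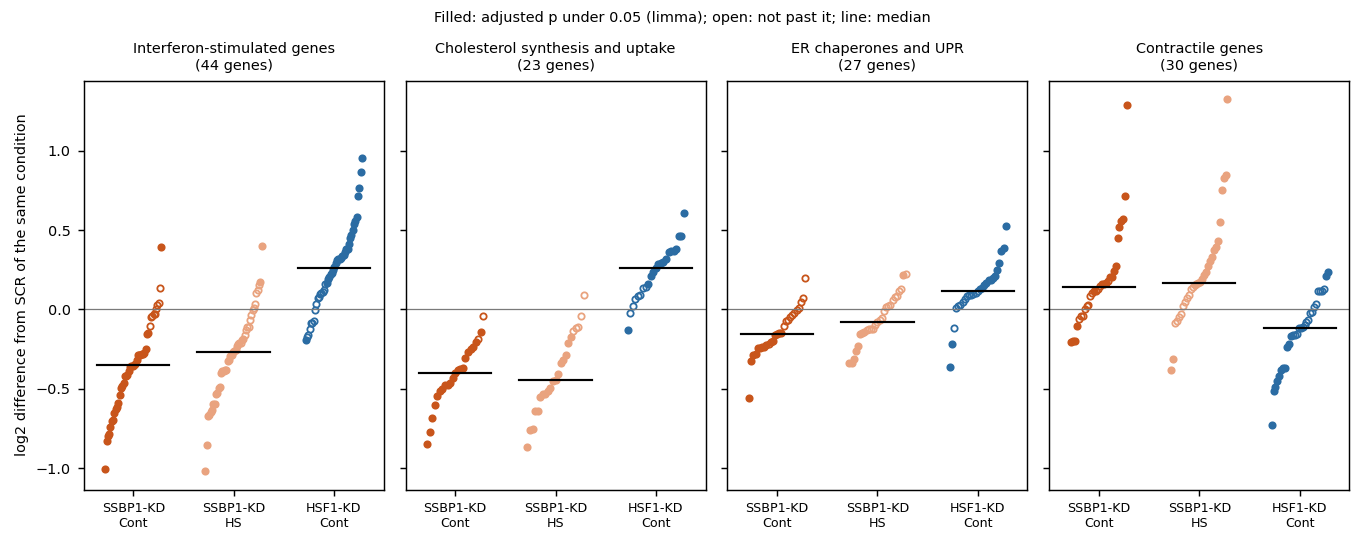
Log2 difference from SCR of the same condition (vertical axis) for every measured member of 4 lists, in SSBP1-KD Cont, SSBP1-KD HS and HSF1-KD Cont; filled points passed an adjusted p under 0.05, open points did not, and lines are medians. The interferon-stimulated, cholesterol and ER lists have medians of -0.35, -0.40 and -0.16 in SSBP1-KD Cont and 0.26, 0.26 and 0.12 in HSF1-KD Cont, and the contractile list has 0.14 and -0.12.

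Genes of cholesterol synthesis had the highest share of called members among the lists. The pathway is run by the membrane-bound factors SREBF1 and SREBF2, which are released when sterols in the endoplasmic reticulum are low and held back by INSIG proteins. Of 23 measured genes 21 fell, none rose, and all 23 had a negative difference (median -0.40); without SSBP1-KD Cont replicate 1, 22 fell. Cyp51, the lanosterol demethylase, read 11.64, 11.55 and 11.54 in SCR Cont and 10.65, 10.71 and 10.83 in SSBP1-KD Cont (log2 difference -0.85, standard error 0.06, adjusted p = 2.65e-07). Dhcr7, which catalyses the closing step of the pathway, went from 10.31, 10.30 and 10.37 to 9.61, 9.50 and 9.55. The gap between the groups was 0.70 for Cyp51 and 0.69 for Dhcr7. Hmgcs1, the synthase that feeds the pathway, differed by -0.48, and its promoter was the only one of 19 with a promoter in the table (5.26%) that held the sterol element TCACNCCAC or its reverse complement, against 1.44% of all genes.
Hmgcs1: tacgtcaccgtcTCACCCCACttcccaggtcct

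This stretch lies at chr13:119690202-119690234 on the + strand, and the capitals mark the match, which starts 137 bases before the start; the absence of these letters from the other windows says nothing about the factor. The regulators fell with their targets: Srebf2 read 12.26, 12.26 and 12.34 in SCR and 11.80, 11.73 and 11.70 in SSBP1-KD (log2 difference -0.55, standard error 0.04, adjusted p = 3.79e-07), and Insig1 and Insig2 differed by -0.51 and -0.68. Genes that lengthen and desaturate fatty acids, in part under the same factors, fell as well. Of 32 genes of fatty acid synthesis and oxidation 17 fell and 3 rose. Fads1, a delta-5 desaturase, read 13.29, 13.22 and 13.32 in SCR and 12.58, 12.57 and 12.53 in SSBP1-KD, a fall of 1.64-fold (adjusted p = 2.13e-07). The elongase gene Elovl6 fell by 1.57-fold, and the stearoyl-CoA desaturase genes Scd2 and Scd1 by 1.52-fold and 1.40-fold. Lysosomal genes also fell, 20 of 40 against 4 that rose, with Scarb2, the receptor that carries glucocerebrosidase to lysosomes, at -0.68 and the acid lipase gene Lipa at -0.66.

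Part of the unfolded-protein response of the endoplasmic reticulum was lower, led by its transcription factor Xbp1. Of 27 ER chaperones and response genes 14 fell and none rose (median -0.16; 14 fell and 1 rose without SSBP1-KD Cont replicate 1). Xbp1 read 11.75, 11.73 and 11.79 in SCR Cont and 11.20, 11.21 and 11.20 in SSBP1-KD Cont, where the 3 arrays spanned 0.01 (log2 difference -0.56, standard error 0.05, adjusted p = 9.77e-07). Herpud1, Edem1 and Pdia4, which act in the disposal and folding of ER proteins, differed by -0.33, -0.28 and -0.28. Hspa5, the gene of the ER chaperone BiP, read 13.13, 13.13 and 13.06 in SCR and 13.15, 13.16 and 13.04 in SSBP1-KD, with overlapping groups (log2 difference 0.01, standard error 0.04, adjusted p = 0.927). The ER stress response element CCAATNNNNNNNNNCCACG, on either strand, was found in the promoters of 9 of 23 members (39.1%), of 4 of the 12 that fell (33.3%) and of 0.137% of all genes; 2 members that fell and Hspa5 are shown, with the match in capitals.
Pdia6: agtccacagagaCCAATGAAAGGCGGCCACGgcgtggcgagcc
Creld2: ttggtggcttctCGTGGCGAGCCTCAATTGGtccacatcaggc
Hspa5: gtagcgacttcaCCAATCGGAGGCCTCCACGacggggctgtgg

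They lie at chr12:17266479-17266521, chr15:88819508-88819550 and chr2:34772013-34772055, all on the + strand, with the match starting 98, 126 and 65 bases before the start. Pdia6, a protein disulfide isomerase gene, differed by -0.24 (adjusted p = 0.00158) and Creld2, for a secreted ER stress protein, by -0.24 (adjusted p = 0.00161). Of the 9 members with the element, the other 5 did not fall, Hspa5 among them. Of 32 ATF4 and integrated stress response targets 11 were lower (34.4%) and 5 higher (15.6%), beside 16.5% and 14.6% over all symbols. Only 2 were higher without SSBP1-KD Cont replicate 2 or SCR Cont replicate 3, and 3 without SCR Cont replicate 1. Atf4 itself read 9.65, 9.59 and 9.66 in SCR and 9.62, 9.66 and 9.73 in SSBP1-KD, which overlap, and Ddit3, for the factor CHOP, differed by 0.16 (adjusted p = 0.117). Mthfd2, a mitochondrial folate enzyme that ATF4 induces, rose by 0.36 (standard error 0.06, adjusted p = 0.000276) and Sesn2 by 0.41, while Pck2, the mitochondrial PEP carboxykinase, fell by 1.59-fold.

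Transcripts of mitochondrial DNA itself, which SSBP1 helps to replicate, did not pass the test in either direction. Of these, 2 had a probe set with a single symbol. COX2, the mitochondrially encoded subunit of cytochrome c oxidase, read 14.01, 13.97 and 14.01 in SCR Cont and 13.78, 14.02 and 14.09 in SSBP1-KD Cont, and ND3, a complex I subunit, 13.49, 13.45 and 13.47 and 13.38, 13.56 and 13.69. Both groups overlapped, the lowest value of each gene came from SSBP1-KD Cont replicate 1, and the log2 differences were -0.03 (standard error 0.08, adjusted p = 0.824) and 0.07 (standard error 0.09, adjusted p = 0.57). Tfam, which packages mitochondrial DNA, read 9.11, 9.09 and 9.18 in SCR and 8.55, 9.04 and 9.20 in SSBP1-KD, where replicate 1 alone was low (adjusted p = 0.272; -0.01 without it). Of 28 nuclear genes for replication, repair and transcription of mitochondrial DNA 7 rose and 1 fell (6 and 1 without SSBP1-KD Cont replicate 1, 4 higher without SCR Cont replicate 3, and 4 and 2 with array medians set equal). Tfb2m, a transcription initiation factor of mitochondria, went from 9.77, 9.80 and 9.70 to 10.03, 10.29 and 10.26 (log2 difference 0.44, standard error 0.06, adjusted p = 0.000109), and its relative Tfb1m, a methylase of mitochondrial ribosomal RNA, had a lower signal, with a log2 difference of -0.26 (adjusted p = 0.00623). Lrpprc, which stabilizes mitochondrial messenger RNA, and Mpv17, an inner membrane protein needed to keep mitochondrial DNA, rose by 0.32 and 0.30. The polymerase gene Polg differed by 0.13 (adjusted p = 0.0351), a call that did not hold without SSBP1-KD Cont replicate 1 or 2 or SCR Cont replicate 2 or 3 (adjusted p up to 0.127), and the helicase gene Twnk by 0.13 (adjusted p = 0.125).

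Nuclear genes of mitochondrial protein synthesis and import held more rises than falls, and the respiratory chain held few of either. Of 44 mitochondrial RNA processing and translation factors 12 rose and 7 fell. Mars2, the mitochondrial methionyl-tRNA synthetase, read 9.43, 9.31 and 9.27 in SCR Cont and 10.00, 9.97 and 9.96 in SSBP1-KD Cont, a 1.56-fold rise without overlap (adjusted p = 1.18e-06), and the subunits of mitochondrial RNase P moved apart, Trmt10c by 0.42 and Hsd17b10 by -0.44. Of 77 mitochondrial ribosomal proteins 18 rose and 3 fell, but without SCR Cont replicate 3 only 6 rose. Of 26 protein import genes 10 rose and 3 fell, with the inner membrane translocase gene Timm17a at 0.39 (standard error 0.05, adjusted p = 7.97e-05) and Chchd4, the import receptor for intermembrane space proteins, at 0.41. Of 74 nuclear-encoded respiratory chain and ATP synthase subunits 5 rose (6.76%) and 8 fell (10.8%); 3 rose without SSBP1-KD Cont replicate 2 or SCR Cont replicate 3, 5 fell without SCR Cont replicate 2 or 3, and 8 rose and 6 fell when quantile normalization was repeated. Among mitochondrial dynamics genes Bnip3, a receptor for the removal of mitochondria that hypoxia induces, read 10.77, 10.81 and 11.03 in SCR and 9.90, 9.90 and 9.86 in SSBP1-KD (log2 difference -0.99, standard error 0.10, adjusted p = 7.64e-06), and the fusion genes Mfn2 and Opa1 rose by 0.43 and 0.21. The outer membrane protein gene Tspo fell by 1.37-fold. Of 27 mitochondrial chaperones and proteases 10 rose and 4 fell, among them Pitrm1, which degrades cleaved targeting peptides, at 0.31, and Spg7, a subunit of an inner membrane protease, at -0.28. The smaller lists are given with their shares, beside 14.6% higher and 16.5% lower over all symbols. Of 17 genes of the permeability transition pore and outer membrane 5 rose (29.4%) and 1 fell (5.88%). Without SCR Cont replicate 3 only 2 of them rose, and 3 without SSBP1-KD Cont replicate 2 or SCR Cont replicate 1 or 2. Of 17 dynamics and mitophagy genes 4 rose and 4 fell (23.5% each). Of 10 biogenesis regulators 4 rose (40.0%) and 1 fell (10.0%), with 2 higher without SSBP1-KD Cont replicate 2.

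Glycolysis and the entry of pyruvate into mitochondria shifted at named steps. Of 19 glycolysis genes 9 fell and 1 rose (median -0.13). The lactate exporter gene Slc16a3 read 11.96, 12.02 and 12.02 in SCR Cont and 11.36, 11.30 and 11.16 in SSBP1-KD Cont, the enolase gene Eno2 fell by 1.59-fold, and the glucose transporter gene Slc2a1 by 1.41-fold. Pdk1, a kinase that switches off pyruvate dehydrogenase, spread widely, with 8.80, 9.10 and 9.37 in SCR against 7.62, 7.91 and 7.80 in SSBP1-KD, and the groups did not overlap (log2 difference -1.31, standard error 0.12, adjusted p = 3.04e-06). Its relative Pdk2 differed by -0.74. In the tricarboxylic acid cycle Idh3a, of the NAD-dependent isocitrate dehydrogenase, rose by 0.48 and Idh2, the NADP-dependent enzyme, fell by 1.38-fold; over the list 7 of 27 rose and 6 fell, and 3 rose without SSBP1-KD Cont replicate 2 or SCR Cont replicate 3.

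**Figure D3:**
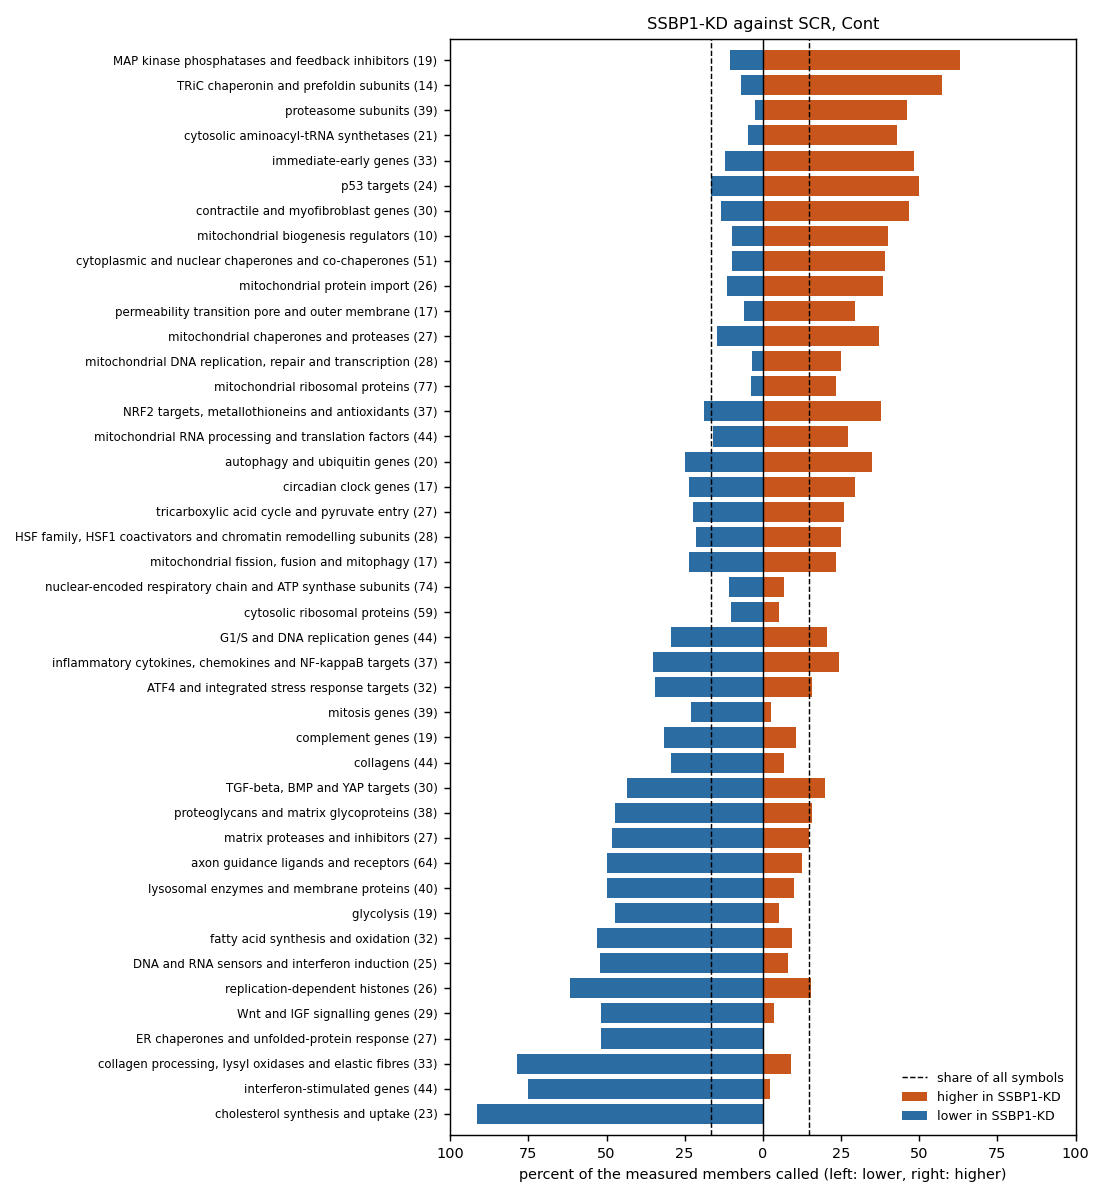
Percent of the measured members (number in brackets) called lower (left, blue) or higher (right, orange) in SSBP1-KD than in SCR, Cont; dashed lines are the shares of all symbols, 16.5% and 14.6%. Cholesterol synthesis, interferon-stimulated genes and collagen processing reach furthest left among the lists drawn, which leave out cell type markers, mitochondrial DNA transcripts and the chaperones chosen by the study, and MAP kinase feedback inhibitors, TRiC and p53 targets furthest right.

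In the other direction, many genes of growth factor signalling rose in unstressed SSBP1-KD cells. Of 33 immediate-early genes 16 rose and 4 fell, and of 19 phosphatases and other feedback inhibitors of MAP kinases 12 rose and 2 fell (median 0.28); without SSBP1-KD Cont replicate 1, 15 and 13 rose. Fosl1, which encodes the AP-1 subunit FRA1, read 10.38, 10.35 and 9.94 in SCR Cont and 11.21, 11.34 and 11.41 in SSBP1-KD Cont (log2 difference 1.09, standard error 0.11, adjusted p = 6.29e-06). Myc went from 11.06, 11.02 and 10.80 to 11.58, 11.49 and 11.62, and the orphan receptor gene Nr4a2 from 9.39, 9.45 and 9.35 to 10.01, 9.97 and 9.92. All knockdown arrays of these 3 genes were above all SCR arrays. Egr1, in contrast, fell from 11.19, 11.24 and 11.36 to 10.88, 10.72 and 10.89. The phosphatase genes Dusp4, Dusp1 and Dusp6, which switch off MAP kinases, rose by 0.77, 0.74 and 0.47, and the receptor kinase inhibitors Spry4 and Spry2 by 0.46 and 0.44, whereas Spry1 fell by 1.38-fold.

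Oxidative stress genes, p53 targets and the cytosolic folding and degradation machinery were also more often higher than lower. Of 37 NRF2 targets, metallothioneins and antioxidants 14 rose and 7 fell. Hmox1, for heme oxygenase, read 10.28, 10.28 and 10.20 in SCR Cont and 10.97, 10.90 and 10.94 in SSBP1-KD Cont (log2 difference 0.68, standard error 0.06, adjusted p = 1.2e-06), and the genes of both subunits of glutamate-cysteine ligase, Gclc and Gclm, rose by 0.62 and 0.60, while the glutathione transferases Gstp1 and Gstm1 fell by 1.47-fold and 1.46-fold. Of 24 p53 targets 12 rose and 4 fell: Mdm2, the ligase that degrades p53, rose by 0.56 (standard error 0.05, adjusted p = 2.51e-06), but Sesn1 went from 9.77, 9.80 and 10.10 down to 8.95, 9.16 and 9.12 and the death receptor gene Fas fell by 1.44-fold. Of 39 proteasome subunits 18 rose and 1 fell (11 rose without SCR Cont replicate 3), with Psma2 at 0.42 and Psmd1 at 0.37, and of 14 TRiC chaperonin and prefoldin subunits 8 rose and 1 fell, with Cct4 at 0.30 and Pfdn4 at 0.40. Of 51 cytoplasmic and nuclear chaperones 20 rose and 5 fell, among them Dnajc2, a ribosome-bound J-protein gene, at 0.34. Among 21 cytosolic aminoacyl-tRNA synthetases 9 rose, Rars and Hars by 0.59 and 0.46, and 1, Qars, fell by 1.34-fold. Cytosolic ribosomal proteins stayed near the share of all symbols or under it, with 3 of 59 higher and 6 lower (2 lower without SCR Cont replicate 1).

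More contractile genes rose than fell, and most histone genes fell. Of 30 contractile and myofibroblast genes 14 rose and 4 fell (2 fell without any 1 of SSBP1-KD Cont replicates 1 and 3 and SCR Cont replicates 2 and 3). Acta2, the smooth muscle actin gene that marks myofibroblasts, read 12.20, 12.27 and 12.15 in SCR Cont, 12.91, 12.92 and 12.94 in SSBP1-KD Cont and 11.66, 11.82 and 11.61 in HSF1-KD Cont. The knockdowns thus lay on either side of SCR, with log2 differences of 0.71 (standard error 0.06, adjusted p = 9.7e-07) for SSBP1-KD and -0.51 (adjusted p = 3.49e-05) for HSF1-KD. Actg2, the enteric smooth muscle actin gene, rose by 2.45-fold, and the genes of myosin light chain Myl9, the actin-binding protein Tagln and calponin Cnn1 by 0.56, 0.52 and 0.45. Of 26 replication-dependent histone genes 16 fell and 4 rose (2 rose without SSBP1-KD Cont replicate 2 or 3 or SCR Cont replicate 1 or 2), and since their sequences are near copies their probe sets may share signal. The linker histone gene H1f1 read 11.22, 11.09 and 11.32 in SCR and 10.12, 10.08 and 10.19 in SSBP1-KD (log2 difference -1.08, standard error 0.07, adjusted p = 1.68e-07), while H2bc4 rose by 2.27-fold. Cell cycle genes changed less clearly, with 9 of 39 mitosis genes lower and 1 higher, and with 13 of 44 G1/S genes lower and 9 higher, where 8 were lower and 8 higher without SSBP1-KD Cont replicate 1, and 6 and 5 without SCR Cont replicate 3. Ccne1, for the cyclin that drives entry into S phase, rose by 0.77 and the proliferation marker gene Mki67 fell by 1.32-fold.

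Complement genes were called lower more often than all symbols but not higher more often, and inflammatory genes exceeded both shares. C1s1, a serine protease of the classical complement pathway, read 8.56, 8.58 and 8.99 in SCR Cont and 6.58, 6.99 and 6.50 in SSBP1-KD Cont, a fall of 4.06-fold (adjusted p = 2.45e-06), and Serping1, the inhibitor of that protease, fell by 3.47-fold. C3ar1, the receptor gene of the anaphylatoxin C3a, rose by 0.91. Over the list 6 of 19 complement genes fell (31.6%) and 2 rose (10.5%), beside 16.5% and 14.6% over all symbols. Of 37 inflammatory genes 13 fell (35.1%) and 9 rose (24.3%). Cxcl5, a neutrophil chemokine gene, read 9.71, 9.63 and 9.68 in SCR and 7.80, 7.74 and 8.0 in SSBP1-KD, the acute phase gene Saa3 fell by 2.80-fold and Lcn2, for the iron-binding lipocalin, by 2.37-fold, whereas Ccl20 rose by 0.74. Among the remaining lists, 5 of 17 circadian clock genes rose and 4 fell, with the activator Arntl at 0.38 and its target Dbp at -0.36. Of 20 autophagy and ubiquitin genes 7 rose and 5 fell (8 and 2 without SSBP1-KD Cont replicate 1, 3 and 3 without SCR Cont replicate 3), with Wipi1, which marks the forming autophagosome, at -0.42. Of 28 genes for the HSF family, HSF1 coactivators and chromatin remodelling subunits 7 rose and 6 fell (3 fell without SCR Cont replicate 3), with the acetyltransferase gene Crebbp at 0.20.

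Arrays of heat-shocked cells, which share no sample with the Cont arrays, gave a second reading of the same knockdown. In HS 2854 symbols were higher (14.3%) and 2864 lower (14.4%) in SSBP1-KD than in SCR. Across the 19938 symbols the log2 differences in Cont and HS had a Pearson r of 0.831 and a Spearman rho of 0.701, given as a description, since genes are not independent replicates and the cells, virus and platform were shared. Of the 6207 symbols called in Cont 5916 (95.3%) had the same sign in HS, with 1945 called higher and 2341 called lower in both and 28 called in opposite directions. The cholesterol list had 18 lower members in HS (17 of the 21 that fell in Cont), the ER list 8 (8 of 14), collagen processing 20 (20 of 26) and the contractile list 18 higher members (14 of 14). Other lists repeated less: of the 16 histone genes that fell in Cont 4 fell in HS, where 7 were higher and 4 lower, of the 16 immediate-early genes that rose 6 rose in HS, where 6 were higher and 17 lower, and of the 20 cytoplasmic and nuclear chaperones that rose 9 rose in HS, where 11 were higher and 17 lower. The 11 chaperones of a list the study chose on these samples, which is not independent evidence, had 8 higher members in Cont and 10 lower in HS. The knockdown difference itself changed with heat for few symbols: 36 had a higher (0.181%) and 62 a lower (0.311%) difference in HS than in Cont by the interaction test. Of these 62, 8 were immediate-early genes, of 33 measured, and 8 were feedback inhibitors of MAP kinases, of 19. Dusp1 read 11.13, 11.18 and 10.93 in SCR Cont against 11.85, 11.81 and 11.80 in SSBP1-KD Cont, and after heat shock 12.59, 12.54 and 12.61 against 12.62, 12.61 and 12.59. The groups were apart in Cont and overlapped in HS, where the log2 difference was 0.02 (adjusted p = 0.838), and the interaction was -0.71 (adjusted p = 0.00065). Myc and Dusp6 likewise differed by 0.05 and -0.18 in HS and Spry2 read 9.02, 9.02 and 9.11 in SCR and 9.13, 8.96 and 9.05 in SSBP1-KD, none past the threshold, and the 3 genes had interactions of -0.55, -0.64 and -0.44 (adjusted p = 0.0322, 0.0204 and 0.0401). Of 51 cytoplasmic and nuclear chaperones 13 had a lower difference in HS, and of 26 histone genes 5 a higher one. No member of the interferon-stimulated, cholesterol, ER or collagen lists passed the interaction test, and 1 of 33 genes of collagen processing did, which does not show that the other differences were equal.

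**Figure D4:**
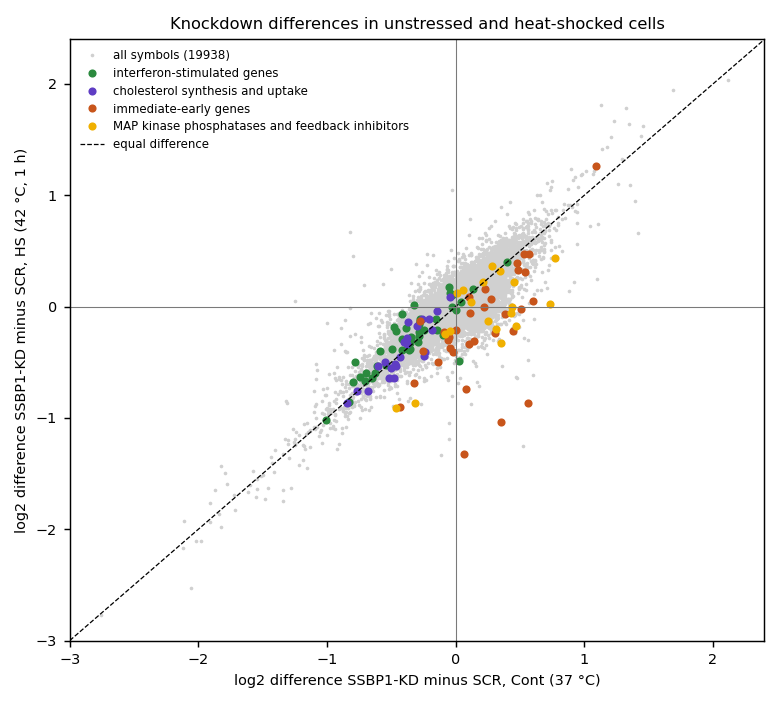
Log2 difference between SSBP1-KD and SCR in unstressed (horizontal) and heat-shocked cells (vertical); 1 point per symbol, with 4 lists in colour and the line of equal differences dashed. Over all symbols r = 0.831; interferon-stimulated and cholesterol genes lie near the line at negative values, and immediate-early and MAP kinase feedback genes lie mostly below it.

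HSF1 knockdown in the same unstressed cells was read against the same 3 SCR arrays. Some of the lists above moved in the other direction than in SSBP1-KD, and others fell with both hairpins. Hsf1 itself was not analysed here. In HSF1-KD Cont 2178 symbols were higher (10.9%) and 2013 lower (10.1%) than in SCR, and the direct comparison of SSBP1-KD with HSF1-KD called 2563 symbols higher (12.9%) and 3305 lower (16.6%). The interferon-stimulated genes, 33 of 44 lower in SSBP1-KD, included 27 higher and 1 lower members in HSF1-KD, and 36 were lower and none was higher in SSBP1-KD than in HSF1-KD. Rsad2 read 10.60, 10.61 and 10.48 in SCR, 10.19, 10.38 and 10.09 in SSBP1-KD and 11.43, 11.47 and 11.39 in HSF1-KD, so that SCR lay between the knockdowns (SSBP1-KD against HSF1-KD -1.21, adjusted p = 3.11e-08). The cholesterol genes, 21 lower in SSBP1-KD, had 15 higher and 1 lower members in HSF1-KD, and all 23 were lower in SSBP1-KD than in HSF1-KD. Cyp51 read 11.94, 11.96 and 11.93 in HSF1-KD, above all SCR and SSBP1-KD arrays. The ER list had 13 higher and 2 lower members in HSF1-KD, and 21 of 27 were lower and 2 higher in SSBP1-KD than in HSF1-KD. Contractile genes went the opposite way, 2 higher and 12 lower in HSF1-KD, and 17 of 30 were higher in SSBP1-KD than in HSF1-KD and none was lower. Serpinb9b, for an intracellular protease inhibitor, read 10.12, 10.12 and 9.75 in SCR, 10.99, 10.98 and 11.06 in SSBP1-KD and 9.35, 9.34 and 9.04 in HSF1-KD, and Sema3a 9.77, 9.78 and 9.87, 8.73, 8.96 and 8.90 and 9.98, 9.87 and 9.90. Other lists held more falls than rises with both hairpins. In HSF1-KD 17 of 26 histone genes fell and 1 rose, and 15 of 29 Wnt and IGF genes fell and 2 rose. Of 33 collagen processing genes 12 fell and 4 rose, and of 44 collagens 11 and 2. Of the 10 fibroblast markers 7 fell and none rose. SSBP1-KD against HSF1-KD gave 2 lower and 4 higher histone genes, 12 and 2 Wnt and IGF genes, and 18 and 2 genes of collagen processing. Among single genes, Sfrp1 differed from SCR by -1.91 in SSBP1-KD and -1.59 in HSF1-KD, Ptprz1 by -1.60 and -1.73 (SSBP1-KD against HSF1-KD adjusted p = 0.501), and Col12a1 by -0.80 and -0.80 (adjusted p = 0.986). An adjusted p above the threshold does not show that the knockdowns were alike for these genes, and both differences subtract the same SCR arrays.

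Without SSBP1-KD Cont replicate 1 the list counts moved little in most lists, as long as the spread was estimated over all remaining arrays of the series. Interferon-stimulated genes went from 33 to 32 lower members, cholesterol genes from 21 to 22, collagen processing from 26 to 25, axon guidance from 32 to 29, and the Wnt and IGF list had 15 and 15. Among the rises, proteasome subunits went from 18 to 16, contractile genes from 14 to 11, NRF2 targets from 14 to 13 and mitochondrial ribosomal proteins from 18 to 21. When only the 5 compared arrays were fitted, the counts fell further. Then 24 interferon-stimulated, 18 cholesterol, 20 collagen processing and 8 ER genes were lower. Higher members were 5 proteasome subunits, 7 contractile genes, 11 NRF2 targets and 9 mitochondrial ribosomal proteins. Over all symbols that fit called 1634 higher and 2120 lower. Of the genes with large differences, Igf2 had -1.91 with and -1.89 without it, Mx2 -1.0 and -0.93, Cyp51 -0.85 and -0.81, and Fosl1 1.09 and 1.15. Genes with small differences moved more: Tfam went from -0.20 to -0.01, Ptprc from 0.21 to 0.07, Cgas from 0.22 to 0.34 and past the threshold, and COX2 from -0.03 to 0.06. SCR Cont replicate 3 weighed more on the counts, with 2094 symbols higher and 2696 lower when it was left out.

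**Figure D5:**
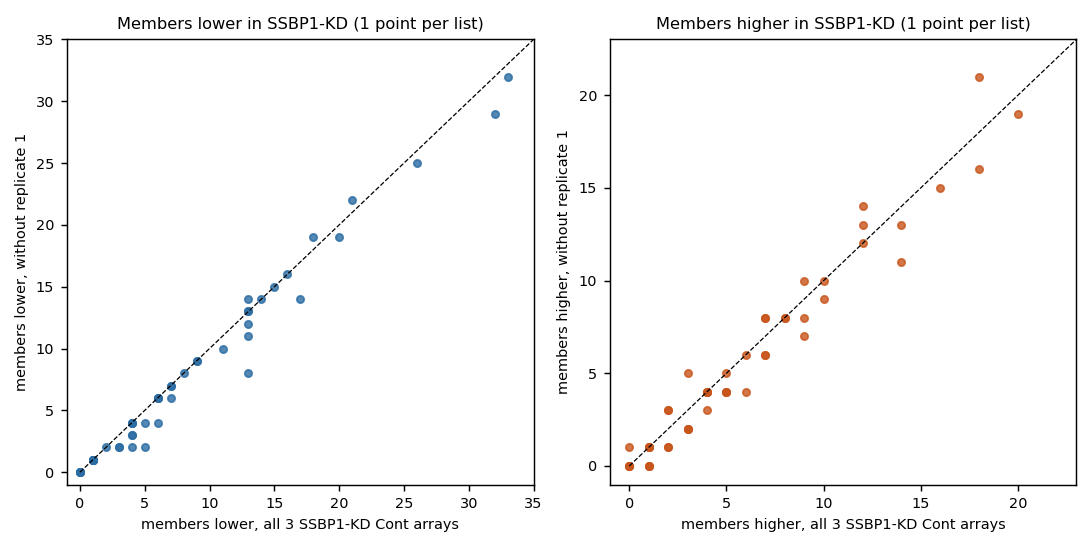
Members called lower (left) and higher (right) in SSBP1-KD than in SCR, Cont, with all 3 SSBP1-KD arrays (horizontal axis) and without replicate 1 (vertical axis), 1 point per list, with the line of equal counts dashed. Most lists lie within 3 members of the line; the G1/S list drops from 13 to 8 lower members.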

How the data were processed

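RNA of 18 samples was hybridized to Affymetrix Mouse Gene 1.0 ST arrays. The authors deposited log2 signals per probe set, and the submitters' processing notes name RMA and Partek 6.5; how background was corrected beyond that is not given in the sources used here. RMA draws all arrays to 1 distribution, so a shift of all genes cannot be seen. Of 35557 probe sets 21789 carried 1 gene symbol in the platform annotation, 1621 several and 12147 none, and 21698 of the probe sets with 1 symbol matched RefSeq. For each of 19938 symbols the brightest probe set by mean was kept.

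The R package limma (version 3.58.1, R version 4.3.3; lmFit and eBayes) was run over all 18 arrays, 1 mean per group, without a block, and p-values were adjusted by Benjamini-Hochberg over all probe sets at 0.05. The scripts were tested on simulated data. Alternatives left out each array, fitted the 6 arrays alone, blocked on replicate number, weighted arrays, changed the prior, the scaling and the filter, and used the methods' t-test.

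The members and lists were chosen with earlier results of these data known. Named genes are those the study names, the 25 largest rises and falls, up to 6 called members of a list by size, defining members below the threshold, and cell type markers. Outside this rule Ifit1, Gbp7, Rsad2, Irgm1, Oasl1, Sting1, Tbk1, Hmgcs1, Egr1, Polg and Crebbp were chosen after their values were seen, and the histone list was narrowed after its matches were seen. Motifs were sought in the RefSeq promoter table (GRCm38.p6). Scanner files were not used here.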

Additional observations from a re-analysis of the deposited data

Results flagged for a closer look

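For 4 named genes the knockdown difference in heat-shocked cells was lower than that in unstressed cells by the interaction test of limma. The difference in HS minus that in Cont, on the log2 scale, was -0.71 for Dusp1 (adjusted p = 0.00065), -0.64 for Dusp6 (adjusted p = 0.0204), -0.55 for Myc (adjusted p = 0.0322) and -0.44 for Spry2 (adjusted p = 0.0401). In each of these genes the 3 SSBP1-KD arrays were above the 3 SCR arrays in Cont, and the causes were not tested.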

How the results depend on the processing

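With the 6 compared arrays fitted alone 1372 symbols were higher and 2048 lower, with the methods' t-test after Benjamini-Hochberg adjustment 1252 and 1905, and at the study's fold and unadjusted p thresholds 162 and 465. A fit of 5 arrays without SSBP1-KD Cont replicate 1, chosen after seeing the data, gave 1634 and 2120. The fits of 5 and 6 arrays and the t-test had fewer arrays to estimate the spread. They also took the spread from the compared groups alone. The 3 SSBP1-KD Cont arrays lay 0.0918 to 0.152 from their group mean, and the arrays of the other groups 0.07 to 0.0976. The main fit pools all groups, so its spread may be too small for this comparison. The part of each in the lower counts was not tested. With each of the 6 arrays left out in turn the counts ran from 2094 to 2960 higher and from 2696 to 3110 lower. Leaving out replicate 1 of SSBP1-KD in both Cont and HS, also chosen after seeing the data, gave 2676 and 2948.

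Ssbp1 passed the threshold with array weights (log2 -0.19, adjusted p = 0.0339), with a trended and robust prior (-0.22, 0.0464), with array medians set equal (-0.24, 0.0488), among the brighter probe sets (-0.22, 0.0267) and among probe sets with 1 symbol (-0.22, 0.0333). It did not with the 6 arrays alone (adjusted p = 0.205), the t-test (0.3), the replicate block (0.0767) or quantile normalization repeated (-0.18, 0.0754), and its other probe set gave -0.07 (0.513). With 1 array left out its log2 difference ran from -0.29 to -0.14. The causes of these changes were not tested.

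With the replicate block 2766 symbols were higher and 3169 lower, and 5832 of the 6207 calls were shared. The numbers did not pair the arrays: of 45 pairs of same-numbered arrays 6 had deviations that correlated over 0.1, and the range was -0.276 to 0.171.

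Of the named genes, 167 were called and none of these changed direction under any alternative, but 141 kept the call under all of them: 26 lost it with the methods' t-test, 11 in the 5-array fit, 9 with the 6 arrays alone and 1 with array medians set equal. Some genes below the threshold changed direction. Hspa5 changed to -0.0093 without SSBP1-KD Cont replicate 1 (also with 5 arrays and without replicate 1 of Cont and HS) and to -0.0137 with array medians set equal, and ran from -0.0150 to 0.0429 with 1 array left out. COX2 changed to 0.0607 without SSBP1-KD Cont replicate 1 in all 3 such fits, 0.0276 with array weights and 0.0411 when quantile normalization was repeated, and ran from -0.0935 to 0.0607 with 1 array left out. Lum changed to -0.0418 without SSBP1-KD Cont replicate 1 in all 3 such fits, and ran from -0.0418 to 0.1353 with 1 array left out.

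The number of arrays, 3 per group, limits the precision, and dim genes such as Ifnb1 lie near the background of the array, so that a small difference could not be detected there.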
